A study of Mus musculus with 16 samples.

Results

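Prelp, Ivl and Arl4d are 3 of the 55450 genes counted in primary mouse hepatocytes, and they were chosen for the size of their change when the cells were given lipid. The hepatocytes came from livers of wild-type mice (young adult C57BL/6J males, by the study's methods) and were cultured overnight in serum-containing medium, so that all groups share the isolation, the medium and its insulin-transferrin-selenium supplement. They were left untreated, given 10 mM sodium itaconate, given a chemically defined lipid mixture diluted 10-fold (arachidonic, linoleic, myristic, oleic, palmitic and stearic acids with cholesterol), or given lipid and itaconate together (lipid + itaconate). Each treatment had 4 libraries, named A to D, and the labels do not say whether a letter is 1 mouse, 1 culture or 1 day. The p-values below therefore measure the spread between these libraries, which may be technical. Because the lipid values chose the genes, their changes with lipid are given as a description with no test, and tests are given for itaconate.

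None of the 3 is a classical hepatocyte gene. Prelp encodes a secreted small leucine-rich proteoglycan of cartilage and basement membranes, which binds perlecan and collagen and anchors the one to the other. Ivl encodes involucrin, a protein that transglutaminases cross-link into the cornified envelope of stratified epithelia such as epidermis. Arl4d encodes a small GTPase of the ADP-ribosylation factor (ARF) family, which acts at the plasma membrane and recruits cytohesins, the exchange factors that load Arf6 with GTP.

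Prelp (ENSMUSG00000041577.5) lies on the minus strand of chromosome 1 at chr1:133910304-133921414 (GRCm38), with up to 3 exons in 2 annotated transcripts, 3615 exonic bases and 1134 coding bases. Ivl (ENSMUSG00000049128.7) lies on the minus strand at chr3:92570902-92573735, with 2 exons, 1922 exonic bases and 1404 coding bases. Arl4d (ENSMUSG00000034936.2) lies on the plus strand at chr11:101665541-101667832, with 2 exons, 1382 exonic bases and 603 coding bases. An antisense gene, Gm15851, overlaps Prelp and was never above 0.146 CPM, the unit of all levels here, which scales read counts to the size of the library.

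The sequences just before the 3 transcription starts are shown because Ivl and Prelp fell and Arl4d rose with lipid, and the letters that each promoter holds can be compared. Each is the 250 bases before the RefSeq start on GRCm38.p6, written 5′ to 3′ on the strand of the gene, at chr1:133921402-133921651 (minus strand), chr3:92573736-92573985 (minus strand) and chr11:101665291-101665540 (plus strand). Capitals mark the matches to the motifs searched.
Prelp: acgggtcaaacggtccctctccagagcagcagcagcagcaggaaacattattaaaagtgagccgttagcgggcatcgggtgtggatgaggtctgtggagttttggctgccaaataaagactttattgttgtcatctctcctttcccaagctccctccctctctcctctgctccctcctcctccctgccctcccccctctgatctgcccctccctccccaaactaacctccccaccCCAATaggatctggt
Ivl: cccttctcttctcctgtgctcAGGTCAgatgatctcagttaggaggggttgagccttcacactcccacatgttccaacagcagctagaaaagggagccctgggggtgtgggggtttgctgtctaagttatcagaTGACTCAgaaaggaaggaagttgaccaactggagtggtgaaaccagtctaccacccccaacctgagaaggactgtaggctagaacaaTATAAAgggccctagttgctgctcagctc
Arl4d: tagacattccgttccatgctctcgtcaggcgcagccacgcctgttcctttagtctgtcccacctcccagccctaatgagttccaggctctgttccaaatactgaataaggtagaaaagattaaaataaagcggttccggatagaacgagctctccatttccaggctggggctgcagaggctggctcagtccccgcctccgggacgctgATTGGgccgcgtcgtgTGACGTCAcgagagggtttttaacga

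The motifs were chosen after the sequences had been seen and were searched on both strands of the 300 bases from 250 before to 50 after the start, in the same window for 27025 genes. In the Prelp promoter the only match was a CCAAT box (CCAAT) at -15 to -11, a motif that 37.9% of all promoters hold. The 250 bases shown begin at chr1:133921402, but the annotated gene given above extends to chr1:133921414. The bases nearest the RefSeq start, with part of this match, therefore lie inside that gene. The Ivl promoter held a nuclear receptor site (AGGTCA, 16.0% of promoters) at -229 to -224, an AP-1 site (TGANTCA, 7.93%) at -116 to -110 and a TATA box (TATAAA, 14.2%) at -29 to -24. The Arl4d promoter held a CCAAT box on the other strand at -42 to -38 and a cAMP response element (TGACGTCA, 1.88%) at -26 to -19. None of the 3 windows held the nuclear receptor site repeated with 1 base between (DR1, 0.0444% of promoters) or 4 bases between (DR4, 0.0111%), an E-box (CACGTG, 7.24%) or a GC box (GGGCGG, 35.9%). The single site lies within both repeats by definition, and the other motifs share no whole match. No motif was common to the 3 promoters. These matches describe letters only, and binding of a factor was not measured.

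All 16 libraries had totals of 22346049 to 35512004 expected counts, with a median of 27719372. Of the genes counted, 11675 had a mean of at least 1 CPM and were tested, and all 3 genes passed this filter with means over the 16 libraries of 5.39 CPM for Prelp, 9.79 CPM for Ivl and 9.80 CPM for Arl4d. For Prelp and Ivl the mean is carried by the libraries without lipid, where they are high. Prelp rested on 11 to 425 counts per library, Ivl on 15 to 879 and Arl4d on 100 to 503, so the lipid-treated levels of Prelp and Ivl are the least precise. Lipid + itaconate replicate B stood apart from its group, with a chi-square per gene of 106 to 147 against the other 3 libraries, where every other pair of replicates was at 64.5 or less. All 8 hepatocyte markers fixed for the check (Alb, Apoa1, Ttr and others) were tested, and their summed level was 29400 to 53800 CPM over the 16 libraries. It was 37800 to 53500 CPM untreated and 33200 to 45200 CPM with lipid, most of it Alb (means 35200 and 30900 CPM). At an adjusted p under 0.05, 2 of the 8 were lower with lipid, where 23.7% of all genes tested were. With itaconate in both arms 5 were lower and 1 higher, where 23.5% of all genes were in each direction.

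Prelp was low in every library that had received lipid. Its levels in replicates A to D were 14.5, 7.05, 9.79 and 9.45 CPM in untreated hepatocytes. They were 15.4, 5.29, 9.34 and 8.24 CPM with itaconate. With lipid they were 1.42, 0.903, 0.649 and 0.473 CPM, and with lipid + itaconate 1.54, 0.732, 1.02 and 0.412 CPM. The 8 libraries without lipid and the 8 with lipid did not overlap, the nearest being itaconate replicate B at 5.29 CPM and lipid + itaconate replicate A at 1.54 CPM. The group means were 10.2 ± 3.13 CPM (SD, n = 4) untreated, 9.57 ± 4.25 with itaconate, 0.861 ± 0.413 with lipid and 0.924 ± 0.477 with lipid + itaconate. On the log2 scale the fitted difference was -3.59 (SE 0.206) for lipid against untreated, a level 12.0-fold lower, and -3.35 (SE 0.200), 10.2-fold lower, for lipid + itaconate against itaconate. Among the 11675 genes tested, the fall of Prelp ranked 2 in the former comparison and 1 in the latter. Within letters the ratio ran from 7.68-fold lower in B to 19.3-fold lower in D for lipid against untreated. In this comparison 47.5% of all genes were called at an adjusted p under 0.05 (edgeR's quasi-likelihood test), and 47.0% in the comparison with itaconate in both arms. Nothing is read from these shares, or from the lack of overlap, for Prelp, Ivl or Arl4d, which were chosen by these values. How many other genes separate the libraries in this way was not counted.

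Ivl showed the same split between libraries with and without lipid. In untreated hepatocytes its levels in replicates A to D were 10.9, 21.8, 19.1 and 31.4 CPM. With itaconate they were 8.88, 13.1, 15.7 and 20.6 CPM. Lipid-treated cells had 0.609, 1.24, 1.70 and 4.42 CPM, and lipid + itaconate-treated cells 0.512, 1.5, 2.20 and 3.00 CPM. The highest library with lipid, replicate D at 4.42 CPM, stayed under the lowest library without it, itaconate replicate A at 8.88 CPM. Means were 20.8 ± 8.43 CPM (SD, n = 4) untreated, 14.6 ± 4.92 with itaconate, 1.99 ± 1.68 with lipid and 1.80 ± 1.06 with both. The log2 difference was -3.45 (SE 0.208) for lipid against untreated, 10.9-fold lower, and -3.10 (SE 0.209) for lipid + itaconate against itaconate, 8.57-fold lower, which ranked 3 and 2 among all falls. Within letters the former ran from 7.07-fold lower in D to 17.4-fold lower in A.

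Arl4d moved the other way and varied less between replicates. Untreated libraries A to D had 5.34, 4.63, 3.65 and 4.00 CPM. Itaconate-treated libraries had 6.64, 6.62, 4.90 and 4.03 CPM. The levels were 15.6, 17.9, 15.0 and 12.4 CPM with lipid and 14.3, 16.7, 11.2 and 13.9 CPM with lipid + itaconate. The lowest library with lipid (11.2 CPM) lay above the highest without it (6.64 CPM). Means were 4.4 ± 0.744 CPM (SD, n = 4) untreated, 5.55 ± 1.3 with itaconate, 15.2 ± 2.30 with lipid and 14.0 ± 2.24 with both. The log2 difference with lipid was 1.79 (SE 0.114), a 3.47-fold higher level that ranked 15 among all rises, and with itaconate in both arms it was 1.35 (SE 0.110), 2.55-fold, ranking 38. Within letters the rise without itaconate ran from 2.92-fold to 4.08-fold.

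**Figure D1:**
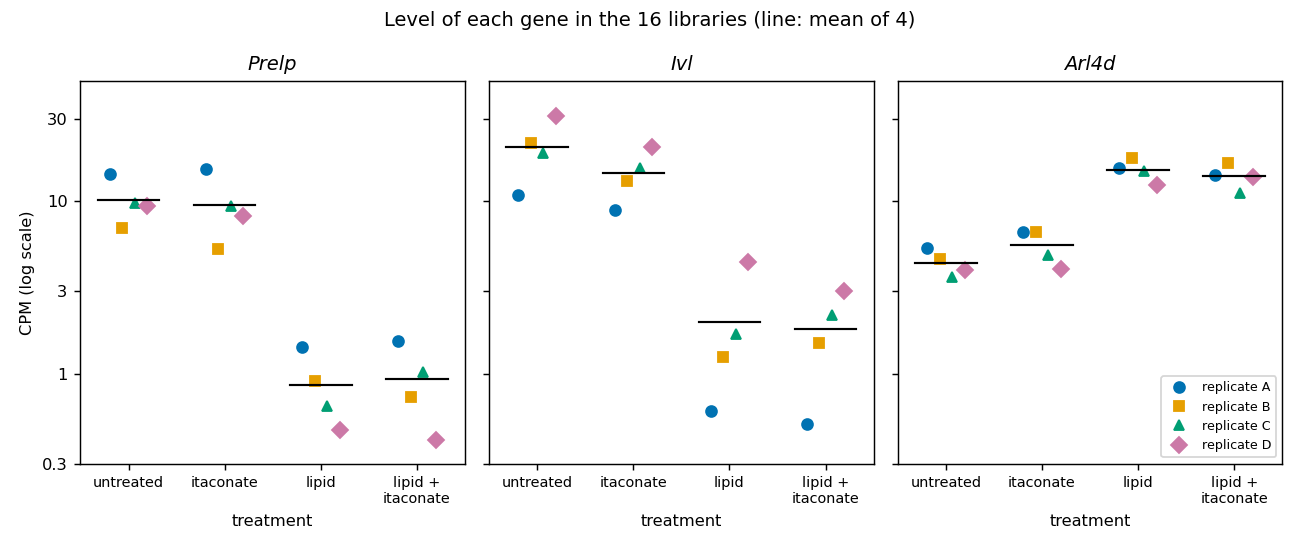
Level of Prelp, Ivl and Arl4d in CPM (log axis) in each of the 16 libraries by treatment, with a symbol for each replicate letter and a line at the mean of 4. For Prelp and Ivl every library with lipid lies under every library without it, for Arl4d every library with lipid lies above, and replicate A is the highest for Prelp and the lowest for Ivl in all 4 treatments. The genes were chosen for their change with lipid.

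Bulk RNA cannot tell a change in RNA per cell from a change in the number of cells of a type, which bears on genes whose usual tissues are cartilage, basement membrane and epidermis. Of 9 stellate cell and fibroblast markers 1 passed the filter (Reln), and the summed level of the 9 was 21.8 to 24.8 CPM untreated and 18.1 to 22 CPM with lipid. Most of this sum was Reln, with means of 21.2 CPM untreated and 18.5 CPM with lipid. Pdgfrb, Lrat, Des, Lum, Col1a1 and Col3a1 had group means under 0.1 CPM. Dcn was 0.984 CPM untreated and 0.892 CPM with lipid, and Rgs5 was 0.279 and 0.263 CPM, each with counts in every library. None of the 6 mesothelial markers was tested, their sum was 0.0749 to 0.584 CPM over all libraries, and Upk3b, Upk1b and Lrrn4 had no count in any. Of 7 keratinocyte markers Krt14, Trp63 and Krt1 had no count in any library. The summed level of the 7 was 7.92 to 10.3 CPM untreated and 5.43 to 6.55 CPM with lipid, and 5.25 CPM of the untreated level was Lor, a cornified envelope gene. Krt5, another of the 7, was 1.19 ± 0.527 CPM untreated and 1.89 ± 0.433 CPM with lipid (SD, n = 4). The summed cholangiocyte markers, of which Cftr had no count and Spp1 made most of the sum, were 600 to 1170 CPM untreated and 336 to 609 CPM with lipid. For endothelial cells 5 of 6 markers were tested, with sums of 11.3 to 21.5 CPM untreated and 13.1 to 22.6 CPM with lipid, and 6 of 7 macrophage markers, with sums of 175 to 281 CPM and 227 to 321 CPM. Most of the macrophage sum was Cd68, which rose with lipid, while Adgre1, Cd5l and Marco fell (by 0.82, 0.81 and 0.76 on the log2 scale). In that comparison 23.8% of all genes were called higher and 23.7% lower. With itaconate in both arms 1 of the 6 was called higher and 5 lower, where 23.5% of all genes were called in each direction. The part of other cell types in the changes of Prelp, Ivl and Arl4d was not tested.

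Per kilobase of exon the order of the 3 genes changed with lipid. In untreated hepatocytes Ivl was highest at 10.8 CPM per kb, and Arl4d (3.19) and Prelp (2.82) followed, with overlapping ranges of 2.64 to 3.86 and 1.95 to 4.02. With itaconate the levels were 7.59 CPM per kb for Ivl, 4.01 for Arl4d and 2.65 for Prelp, and the range of Arl4d overlapped both others. With lipid Arl4d was highest at 11.0 CPM per kb, above Ivl at 1.04 and Prelp at 0.238, and the ranges of Ivl (0.317 to 2.30) and Prelp (0.131 to 0.393) overlapped. With lipid + itaconate the order was the same, at 10.1, 0.938 and 0.256 CPM per kb.

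None of the 3 genes passed the test for the itaconate effect averaged over cells with and without lipid. This average is independent of the choice of the genes only where untreated and lipid libraries spread equally. The SD was 40.6% of the mean untreated and 84.2% with lipid for Ivl, 30.6% and 48% for Prelp, and 16.9% and 15.1% for Arl4d. For Prelp the log2 difference was -0.01 (SE 0.158), with an interval of 2 SE on either side from -0.33 to 0.30 (adjusted p = 0.962, exact permutation within letters p = 0.742, two-sided). For Ivl it was -0.31 (SE 0.153), from -0.62 to -0.01 (adjusted p = 0.197, exact p = 0.125). For Arl4d it was 0.10 (SE 0.0795), from -0.06 to 0.26 (adjusted p = 0.425, exact p = 0.406). In this comparison 12.3% of the genes tested were called. The exact test used the mean of the log2 differences within letters (-0.04 for Prelp, -0.26 for Ivl and 0.10 for Arl4d) and not the fitted value. Over 8 pairs of libraries the exact test can reach 0.0078125. It exchanged the pairs of a letter separately, and these pairs may not be independent. Without lipid replicate D, the library with the highest Ivl among those given lipid, the difference for Ivl was -0.09.

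In cells without lipid, Ivl was lower with itaconate in 4 of 4 letters, by 1.21-fold to 1.66-fold, and Arl4d was higher in 4 of 4, by 1.01-fold to 1.43-fold. The log2 differences were -0.49 (SE 0.167, interval -0.82 to -0.15, adjusted p = 0.105) for Ivl and 0.32 (SE 0.121, interval 0.08 to 0.57, adjusted p = 0.134) for Arl4d, and neither passed 0.05. Prelp differed by -0.14 (SE 0.154, interval -0.44 to 0.17, adjusted p = 0.647) and was lower in 3 of 4 letters. The exact test over 4 pairs cannot go below 0.125, which it gave for Ivl and Arl4d, and it gave 0.375 for Prelp. In this comparison 4.91% of all genes were called, and it shares the untreated libraries with the values that chose the genes. The call for Ivl depended on the fit, since with only the 8 libraries compared its adjusted p was 0.00109.

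In cells with lipid neither Ivl nor Arl4d passed the test for itaconate, where 2.58% of all genes did. The log2 differences of lipid + itaconate from lipid were -0.14 (SE 0.255, interval -0.65 to 0.37, adjusted p = 0.83) for Ivl and -0.12 (SE 0.103, interval -0.32 to 0.09, adjusted p = 0.583) for Arl4d. The difference for Prelp was 0.11 (SE 0.266, interval -0.43 to 0.64) and is a description with no p. Prelp averaged under 1 CPM in both arms (0.861 and 0.924 CPM) and passed the filter only through the groups without lipid. Prelp and Ivl were each higher in 2 letters and lower in 2, and Arl4d was lower in 3 of 4. The lipid libraries are shared with the choice of the genes. Without lipid replicate D the sign turned for Ivl (0.31) and for Prelp (-0.04).

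The change with lipid was smaller in size with itaconate than without it in 4 of 4 letters for Prelp and for Ivl, and in 3 of 4 for Arl4d. In A and D the log2 values without and with itaconate were close for Prelp (-3.34 and -3.31, -4.27 and -4.26) and Ivl (-4.12 and -4.07, -2.82 and -2.78). They were further apart in C for Prelp (-3.88 and -3.18) and in B and C for Ivl (-4.11 and -3.11, -3.47 and -2.83). The differences between the fitted log2 changes were 0.24 for Prelp, 0.35 for Ivl and -0.44 for Arl4d, with an SD over the 4 letters of 0.329, 0.472 and 0.426. These letter counts and differences contain the change by which the genes were chosen, so nothing about itaconate is read from them, and they were not tested. Leaving out lipid + itaconate replicate B, the changes with lipid in the presence of itaconate were -3.41 for Prelp, -3.08 for Ivl and 1.33 for Arl4d.

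**Figure D2:**
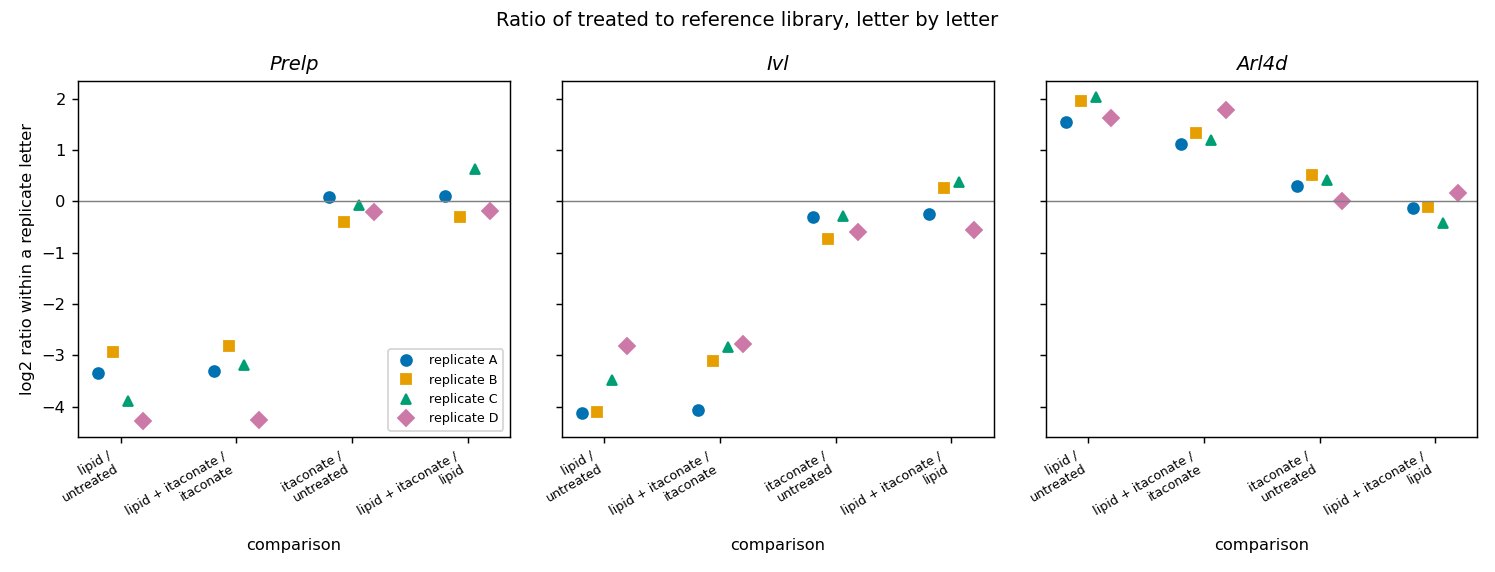
Log2 ratio of each treated library to the reference library of the same replicate letter, for 4 comparisons and the 3 genes, with 1 symbol per letter and a grey line at no difference. The 4 letters lie from -4.27 to -2.94 for Prelp and from -4.12 to -2.82 for Ivl with lipid against untreated, and from 1.55 to 2.03 for Arl4d, while the ratios for itaconate lie between -0.74 and 0.63.

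Prelp and Ivl deviated in opposite directions between replicate letters. Prelp was highest in replicate A in all 4 treatments, by 0.56 to 0.87 above the treatment mean on the log2 scale. Ivl was lowest in replicate A in all 4, by -1.52 to -0.65, and highest in replicate D in all 4, by 0.57 to 1.5. Replicates B and D each held the lowest Prelp in 2 treatments. For Arl4d the deviations were smaller, between -0.43 and 0.29, with A and B each highest in 2 treatments and C and D each lowest in 2. Over the 16 libraries, after subtracting each treatment mean, Pearson's r was -0.80 between Prelp and Ivl, 0.19 between Prelp and Arl4d and -0.56 between Ivl and Arl4d. The libraries of a letter share whatever the letter stands for, so these 16 points are not independent and no p is given. Both genes fell with lipid within each letter.

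**Figure D3:**
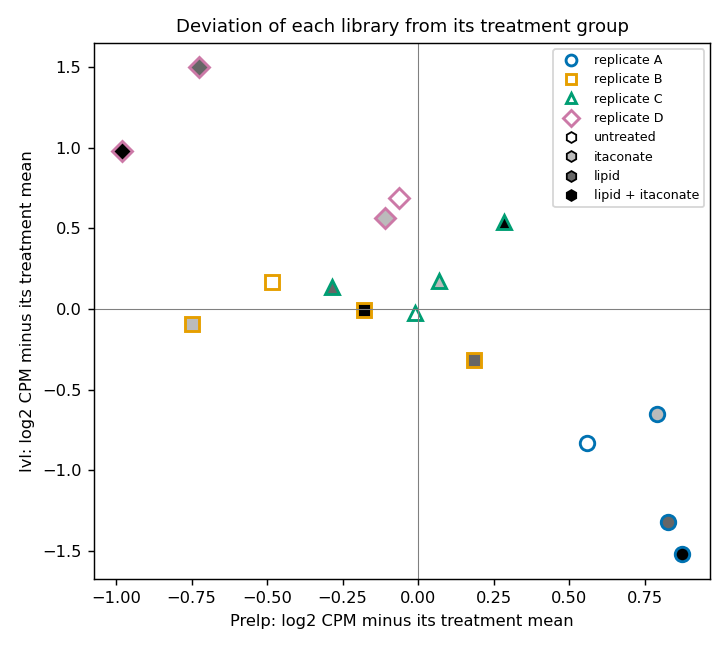
Deviation of each of the 16 libraries from its treatment mean in log2 CPM, Prelp on the horizontal and Ivl on the vertical axis, with the symbol and outline for the replicate letter and the fill for the treatment. The 4 libraries of replicate A sit at the lower right, with Prelp 0.56 to 0.87 above and Ivl 0.65 to 1.52 below its mean, and those of replicate D have the highest Ivl.

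Few relatives of Prelp were expressed. Of 17 other small leucine-rich proteoglycans 2 were tested, and Fmod, Kera, Epyc, Chad and Podnl1 had no count in any library. Chadl, a chondroadherin-like relative, had 0.515, 0.456, 0.694 and 0.856 CPM untreated and 2.03, 1.99, 1.22 and 1.76 CPM with lipid in replicates A to D. The log2 differences were 1.46 (SE 0.285) with lipid and 1.02 (SE 0.280) with itaconate in both arms, opposite in sign to Prelp, on 11 to 53 counts in the 8 libraries given. They are a description, because Chadl passed the filter only through the groups with lipid (its means were 0.63 CPM untreated and 0.711 CPM with itaconate). Tsku (tsukushi), the most abundant of the family at 33.1 CPM per kb untreated, had log2 differences of 0.02 (adjusted p = 0.759) and -0.01 (adjusted p = 0.915). Dcn (decorin) and Bgn (biglycan), the family members of most connective tissue, were under the filter at 0.984 and 0.827 CPM untreated and 0.892 and 0.557 CPM with lipid. Optc (opticin), whose gene ends 2305 bases from Prelp, was also under the filter, at 0.481 CPM untreated and 0.3 CPM with lipid. Of 4 binding partners, 1 was tested: Hspg2, which encodes perlecan, rose by 0.46 with lipid (SE 0.171, adjusted p = 0.0355) and had 0.16 (adjusted p = 0.451) with itaconate in both arms. The call for Hspg2 was lost without any 1 of 6 of the libraries (untreated or lipid replicates B, C and D).

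The cornified envelope genes tested beside Ivl moved in both directions. Of 21 others 8 were tested, and with lipid 3 rose, 3 fell and 2 were not called, with a median log2 difference of 0.07 against 0.005 over all genes tested, of which 47.5% were called. With itaconate in both arms the counts were the same, with a median of -0.03 against 0.004 and 47.0% of all genes called. Lor (loricrin, the main structural protein of the envelope) had 3.37, 4.56, 7.01 and 6.06 CPM untreated and 1.38, 1.24, 1.38 and 2.16 CPM with lipid. It fell by 1.75 on the log2 scale (SE 0.176, adjusted p = 1.52e-06) and by 1.43 with itaconate in both arms (SE 0.172, adjusted p = 9.82e-06). Sprr1a, a small proline-rich envelope precursor, was 506 CPM per kb even with lipid. Its levels were 1090, 1140, 1170 and 1260 CPM untreated and 399, 323, 391 and 519 CPM with lipid. Sprr1a fell by 1.53 with lipid (SE 0.0885, adjusted p = 8.59e-09) and by 1.63 with itaconate in both arms (SE 0.0887, adjusted p = 6.83e-09). Ppl (periplakin) fell by 0.35 and 0.63 (adjusted p = 0.00574 and 5.38e-05).

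The other called envelope genes rose with lipid. Evpl (envoplakin, the partner of periplakin) rose by 0.81 on the log2 scale (adjusted p = 0.00493) and by 0.53 with itaconate in both arms (adjusted p = 0.0437). Tchh (trichohyalin) rose by 0.58 and 0.51 (adjusted p = 0.0268 and 0.0428). Tgm2, a transglutaminase also common outside the epidermis, rose by 0.31 and 0.26 (adjusted p = 0.000314 and 0.00141). Tgm1, the keratinocyte transglutaminase, had 0.20 and -0.10 and was not called, nor was Krt10 at -0.05 and 0.05. Flg, Sprr2d, Sprr3, Scel, Rptn and Krt1 had no count in any library.

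The genomic neighbours of Ivl belong to the same gene cluster. Sprr1a lies 85007 bases from it. Smcp, at 10132 bases, and Lce6a and Sprr4 were at or near 0. The protein-coding gene 2210017I01Rik, at 30983 bases, had 0.862 CPM untreated, 0.682 with itaconate, 0.391 with lipid and 0.357 with both, under the filter and not tested. Btg2, near Prelp, had log2 differences with lipid of 0.11 and 0.17 and was not called.

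**Figure D4:**
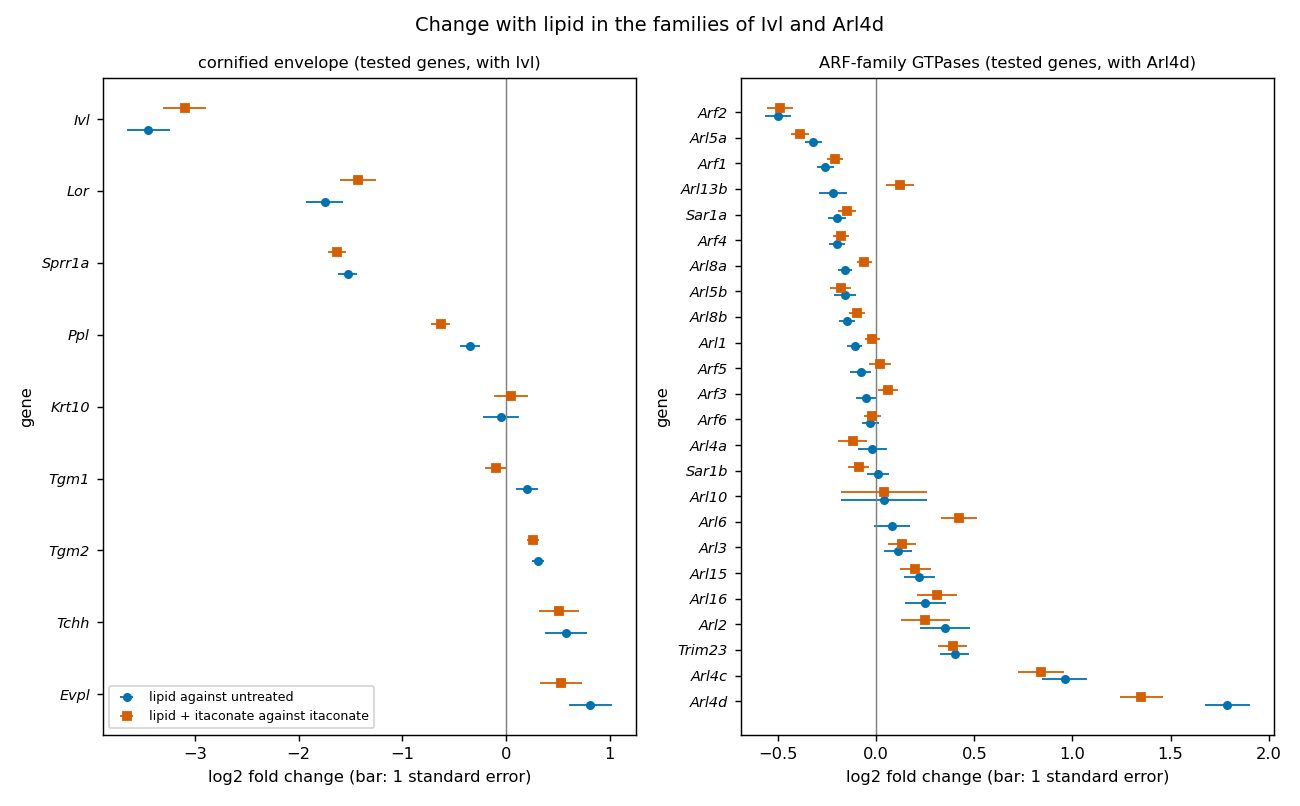
Log2 fold change with lipid, without itaconate (circles) and with itaconate in both arms (squares), for the tested cornified envelope genes with Ivl (left) and the tested ARF-family genes with Arl4d (right), the bar being 1 standard error. On the left Ivl has the most negative values, at -3.45 and -3.10, followed by Lor and Sprr1a, and on the right Arl4d has the highest, at 1.79 and 1.35, followed by Arl4c at 0.96 and 0.84.

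Arl4d was read beside its 2 closest relatives, Arl4a and Arl4c. Arl4c, which like Arl4d binds cytohesins, was 13.7 ± 2.48 CPM untreated, 10.2 ± 1.00 with itaconate, 26.5 ± 3.13 with lipid and 18.1 ± 1.45 with lipid + itaconate (SD, n = 4). It rose with lipid by 0.96 on the log2 scale (SE 0.113, adjusted p = 6.95e-06) and by 0.84 with itaconate in both arms (SE 0.116, adjusted p = 3.83e-05). Unlike the value for Arl4d, the itaconate effect in cells with lipid passed the test for Arl4c, which fell by 0.55 (SE 0.110, adjusted p = 0.0193), and the difference between the 2 genes was not tested. Arl4a had -0.02 (adjusted p = 0.810) and -0.12 (adjusted p = 0.188) with lipid. Per kb of exon the 3 were at 3.19 (Arl4d), 3.13 (Arl4a) and 2.49 CPM (Arl4c) untreated and at 11.0, 3.04 and 4.83 CPM with lipid.

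Of the 26 other ARF-family genes 23 were tested. With lipid 4 rose and 10 fell, a share of calls to be read against the 47.5% of all genes, with a median log2 difference of -0.05. With itaconate in both arms 5 rose and 7 fell, with a median of -0.02. Besides Arl4c, Trim23 rose by 0.40 and 0.39 (adjusted p = 0.00037 and 0.000494), while Arf2 fell by 0.50 and 0.49 (adjusted p = 2.66e-05 and 2.91e-05) and Arl5a by 0.32 and 0.39. Arf1, the most abundant at 174 CPM per kb untreated, fell by 0.26 and 0.21. In the pathway by which ARL4 proteins act, 5 of 6 genes were tested and 2 fell in both comparisons, a share near the 47.5% and 47.0% of all genes called. These were Cyth2, the cytohesin ARNO, which fell by 0.49 and 0.41 (adjusted p = 1.25e-06 and 7.61e-06), and Rac1, which fell by 0.43 and 0.29 (adjusted p = 1.06e-06 and 4.5e-05). Arf6, the GTPase that cytohesins load, was 122 CPM untreated and 120 CPM with lipid and was not called.

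Meox1, a homeobox gene 209678 bases from Arl4d, was the one tested neighbour of Arl4d that rose with lipid in both comparisons, by 1.76 (SE 0.231, adjusted p = 2.01e-05) and 1.02 (SE 0.240, adjusted p = 0.0028). Its means were 1.2 ± 0.362 CPM untreated, 1.07 ± 0.384 with itaconate, 3.88 ± 0.548 with lipid and 2.18 ± 0.634 with both (SD, n = 4). Among nearer genes, Tmem106a, at 73753 bases, had 0.15 (adjusted p = 0.368) with lipid and rose by 0.55 with itaconate in both arms (adjusted p = 0.00487). Dhx8, at 65087 bases, had 0.05 and 0.08 and was not called. Rdm1, at 29441 bases, had 0.04 (adjusted p = 0.782) and rose by 0.33 with itaconate in both arms (adjusted p = 0.0141). Etv4 had -0.36 and -0.17 and was not called.

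Lists of lipid-regulated genes, drawn up for the sensors that sterols and fatty acids act on, were read in the same comparisons. Over all genes tested, 23.7% were called lower with lipid and 23.5% with itaconate in both arms, and 47.5% and 47.0% were called in either direction. All 8 targets of PPAR alpha, the fatty acid receptor, fell in both comparisons, with median log2 differences of -0.46 and -0.53. Of 8 targets of SREBP2, which is held inactive by cholesterol, 6 fell in both, with medians of -0.68 and -0.61. Of 9 targets of LXR, the oxysterol receptor, 7 were tested, and 5 fell with lipid and 6 fell and 1 rose with itaconate in both arms, with medians of -0.29 and -0.36.

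The genes whose pattern over the 16 libraries was most like each of the 3 were sought among 9361 genes of at least 5 CPM, as Pearson's r of log2 CPM with the letter effect removed. Since 8 libraries had lipid and 8 did not, a high r reflects mainly the step between them and does not require a change of similar size. Nearest to Prelp were Ascc3 (r = 0.989), Slc41a2, Eepd1, Ewsr1 and Clptm1l, and the most opposite was Wdr73 (-0.988). Ascc3 had -0.70 with lipid where Prelp had -3.59. Nearest to Ivl were Ccar1 (0.994), Slc20a2, Cachd1, Ascc3 and Nsdhl, and the most opposite was Ank3 (-0.984). Cachd1, with -1.10, moved most of these. Nearest to Arl4d were Rpap2 (0.994), Zcchc24, Pxylp1, Hspa1a and Dcakd, and the most opposite were Acox2 (-0.992) and Casp8 (-0.988). Rpap2 was also the second most opposite gene to Prelp (-0.986) and to Ivl (-0.983). Hspa1a, with 1.33, moved most among those near Arl4d, and it shares reads with its near-identical copy Hspa1b.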

How the data were processed

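The authors prepared stranded mRNA libraries, trimmed reads with Cutadapt 1.18, aligned them to mm10 with STAR 2.7.0f and quantified GENCODE genes with RSEM 1.3.1 (bcl2fastq 2.20 and Picard 2.18.26 are also named in the submitters' processing notes). The deposited values are gene-level expected counts with no normalization, of which 5.41% were not whole, and the strand setting of the quantification is not given in the sources used here. All 55450 identifiers matched GENCODE M21, from which positions and lengths were taken.

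Counts were rounded and fitted in R 4.3.3 with edgeR 4.0.16 (glmQLFit, glmQLFTest, TMM, limma 3.58.1) over all 16 libraries, with treatment and replicate letter as terms, on the 11675 genes that averaged 1 CPM or more, with Benjamini-Hochberg adjustment over all of them and a threshold of 0.05. The fit was tested on simulated data with known itaconate effects. These data had a common spread for all genes and no lipid or letter effect, unlike Prelp and Ivl here. Exact tests exchanged treatments within letters. The letter is a term because the study removed a batch, and all 24 same-letter correlations of deviations were over 0.1 (0.144 to 0.469). No pair of replicates among 24 agreed within counting noise (chi-square per gene 10.0 to 147). Log2 CPM used a prior count of 0.5.

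The 3 genes, the gene lists (from general knowledge) and the tests were chosen with earlier results of these data known. Named genes are the 3, tested members of their families, the 5 most like and 2 most opposite genes by correlation, and the nearest 3 protein-coding neighbours on each side. Genes singled out in other lists were named after their values were seen. Promoters are those of RefSeq (GRCm38.p6), found for 3 of 3 genes. Alternatives were no letter term, RLE normalization, no filter, DESeq2 1.42.0, only the 8 libraries compared, the exact test, and each library left out.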

Additional observations from a re-analysis of the deposited data

How the results depend on the processing

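Under the alternatives 309 values of the 3 genes were unchanged, 8 turned sign and 4 passed a threshold they had missed. Tested values were unchanged if they kept their sign and their side of the threshold. The untested changes with lipid were unchanged if they kept their sign and moved by less than the SD over letters. For Ivl the averaged itaconate effect passed the test without the filter (-0.31, adjusted p = 0.0189). Ivl against untreated passed it without the filter (-0.48, adjusted p = 0.000216), with only the 8 libraries compared (-0.49, adjusted p = 0.00109) and without lipid replicate D (adjusted p = 0.0466), and ran from -0.61 to -0.36 over the libraries left out. Over all alternatives its adjusted p was 0.000216 to 0.637, and it did not pass with DESeq2 (adjusted p = 0.297) or without the replicate block (adjusted p = 0.637). This comparison shares the untreated libraries with the values that chose the genes, so no result for Ivl is read from the passes. The averaged effect for Prelp, near 0, turned sign without the replicate block (0.04) and ran from -0.09 to 0.09 over the libraries left out. In cells with lipid, leaving out 1 library gave -0.30 to 0.31 for Ivl and -0.04 to 0.32 for Prelp. The changes with lipid kept their sign in every alternative, from -3.88 to -2.95 for Prelp and Ivl and from 1.26 to 1.86 for Arl4d. The causes of these shifts were not tested.

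Counts of called genes in the small lists moved more often (74 moved by over 1.5 times and 534 did not). Without the replicate block, itaconate against untreated called 0 genes in the ARF, ARL4 effector, cornified envelope and SREBP2 lists (1, 1, 2 and 2 with it), lipid + itaconate against lipid 0 in the ARF, cornified envelope and PPAR alpha lists (1 each with it), lipid + itaconate against itaconate 3 in the cornified envelope list (6 with it) and lipid against untreated 3 in the LXR list (5 with it). DESeq2 called 2 ARF and 4 SREBP2 genes for itaconate against untreated, and 2 ARF, 2 cornified envelope and 1 SREBP2 gene for lipid + itaconate against lipid. RLE normalization called 1 cornified envelope gene for itaconate against untreated. With 1 library left out, itaconate against untreated called 0 to 2 ARF, 0 to 1 ARL4 effector, 1 to 2 cornified envelope and 0 to 5 SREBP2 genes. Lipid + itaconate against lipid then called 0 to 2 ARF, cornified envelope and PPAR alpha genes, and 0 to 1 ARL4 effector, LXR and SREBP2 genes. The call for Hspg2 with lipid ran from 0 to 1.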

Other observations

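Of the 8 cornified envelope genes tested beside Ivl, 3 passed the test for itaconate averaged over cells with and without lipid, where 12.3% of all genes did and Ivl did not. Ppl (periplakin, which links the envelope to intermediate filaments) rose by 0.36 on the log2 scale (SE 0.0653, adjusted p = 0.00285). Its level was 20 CPM untreated, 28.3 with itaconate, 15.5 with lipid and 17.9 with both. Tgm2 fell by 0.23 (SE 0.0399, adjusted p = 0.0023), from 2780 CPM untreated to 2410 CPM with itaconate, and Sprr1a fell by 0.23 (SE 0.0613, adjusted p = 0.0229). Lor had -0.02 (adjusted p = 0.948).

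In the ARF family, Arl4c fell by 0.49 with itaconate on the same average (SE 0.0809, adjusted p = 0.00178), where Arl4d had 0.10 (SE 0.0795). The difference between the 2 genes was not tested. Tmem106a, a neighbour of Arl4d at 73753 bases, fell by 0.71 with itaconate in cells without lipid (SE 0.140, adjusted p = 0.00941), where Arl4d had 0.32.

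The AP-1 letters found before the start of Ivl (TGANTCA) were also present once before Lor, at -48 to -42, and at 2 places before Sprr1a, at -146 to -140 and -116 to -110. A TATA box (TATAAA) was present before all 3 of these genes. Neither motif was found before Prelp, which fell with lipid, or before Arl4d, which rose. The remaining promoters searched were those of Tchh, Arl4c and Krt10. Tchh and Arl4c rose with lipid and held neither motif. Krt10 was not called and held a TATA box at -26 to -21 but no AP-1 site. Over all promoters, 7.93% held an AP-1 site and 14.2% a TATA box. The matches are a description. The promoters of Ppl, which also fell, Evpl and Tgm2, which rose, and Tgm1 and Arl4a, which were not called, were not searched. For this reason genes that fell and genes that rose are not compared here.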
